A study of Homo sapiens with 12 samples.

Results

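Folliculin (FLCN), its partners FNIP1 and FNIP2, the Rag GTPases RRAGC and RRAGD, the transcription factors TFEB, TFE3 and MITF, and the outputs GPNMB and MCOLN1 were followed in SK-N-SH cells on substrates of 3 stiffnesses. These 10 genes were taken as a named list, by gene symbol, out of 60664 genes in the count table, and all 10 were among the 17960 genes with enough counts to be tested. The list was drawn up with results of these libraries known, so its members' differences are given as a description of these libraries and not as independent evidence. SK-N-SH is a human neuroblastoma line with neuron-like and flat, substrate-adherent cells. Total RNA was sequenced from 4 libraries on 1 kPa, 4 on 8 kPa and 4 on 30 kPa, where kPa is kilopascal, a unit of stiffness, and a lower value is a softer surface. No agent or genetic change besides stiffness is given in the labels, and all libraries share the same line. The labels do not give the substrate material, the time in culture or whether the 4 libraries of a stiffness came from separate cultures, so the p-values measure only how far these libraries differ, and that spread could be technical.

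Folliculin works with FNIP1 or FNIP2 at the lysosome surface, where the complex activates the GTPase function of RagC and RagD when amino acids are present. RagC or RagD in that state brings TFEB, TFE3 and MITF to the kinase complex mTORC1, whose phosphorylation keeps the factors in the cytoplasm. When folliculin is lost, TFE3 and TFEB enter the nucleus and switch on lysosomal and autophagy genes that carry a CACGTG-type E-box, and GPNMB, a membrane glycoprotein, is a known marker of that state in kidney tumours. Transcript levels do not show where the factors are in the cell or whether they are phosphorylated.

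Promoter sequences are shown because the TFE factors are known to bind E-boxes, and because FLCN, FNIP1 and GPNMB were the members that were lower at 8 than at 1 kPa. The RefSeq table (build GRCh38.p14) held 14 promoter windows for 9 of the 10 members, each 300 bases long. The windows were searched on both strands for CACGTG, for the longer TCACGTGA and a 10-base form of it with G before and C after, and for TCACATGA, the last chosen after the sequences had been read. Longer motifs contain the shorter CACGTG, so their matches overlap. Matches are in capitals, and the stretches of FLCN, FNIP1, RRAGC and MCOLN1 stop before the first transcript start that RefSeq or GENCODE v29 annotates in the window. The GPNMB stretch is the 30 bases around its match, which lie before its RefSeq start but after a GENCODE v29 start in the same window.
FLCN, minus strand, GRCh38 chr17:17237189-17237418: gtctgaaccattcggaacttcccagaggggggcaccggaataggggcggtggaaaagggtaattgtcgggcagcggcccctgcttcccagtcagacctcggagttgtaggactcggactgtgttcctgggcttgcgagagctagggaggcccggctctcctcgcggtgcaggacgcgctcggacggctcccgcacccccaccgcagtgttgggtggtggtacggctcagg
FNIP1, minus strand, GRCh38 chr5:131797064-131797267: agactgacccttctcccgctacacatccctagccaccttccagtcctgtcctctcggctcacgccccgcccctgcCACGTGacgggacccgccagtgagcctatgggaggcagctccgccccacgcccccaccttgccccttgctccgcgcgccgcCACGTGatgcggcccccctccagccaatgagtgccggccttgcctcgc
RRAGC, minus strand, GRCh38 chr1:38859824-38860022: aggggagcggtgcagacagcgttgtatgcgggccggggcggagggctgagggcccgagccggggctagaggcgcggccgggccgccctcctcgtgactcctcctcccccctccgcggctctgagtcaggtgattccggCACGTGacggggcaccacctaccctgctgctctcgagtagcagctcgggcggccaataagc
MCOLN1, plus strand, GRCh38 chr19:7522374-7522623: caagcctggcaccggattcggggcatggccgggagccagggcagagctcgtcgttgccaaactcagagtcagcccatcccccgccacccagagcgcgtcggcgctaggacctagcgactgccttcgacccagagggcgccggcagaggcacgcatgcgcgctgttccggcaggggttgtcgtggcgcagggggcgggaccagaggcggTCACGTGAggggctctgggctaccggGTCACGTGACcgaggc
GPNMB, plus strand, GRCh38 chr7:23246701-23246730: gcttaataccaTCACATGAtcctccccgag

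CACGTG stood 2 times in the FNIP1 window, 1 time in that of RRAGC and 2 times in that of MCOLN1, and 7.26% of all 35116 RefSeq windows hold it. MCOLN1, which encodes a calcium channel of the lysosome membrane, was the single member with TCACGTGA, found in 0.98% of windows, and with its 10-base form, found in 0.353% of windows. GPNMB held TCACATGA from -63 to -56 relative to its RefSeq start, a motif found in 1.0% of windows, and 1 of the 2 windows of FNIP2 held it too. None of these letters stood in the window of FLCN or in those of TFEB, TFE3 and MITF. Within the searched windows the members lower at 8 kPa did not share 1 of the searched motifs. MCOLN1, with the longest match, was not among those members. Sequence outside the windows was not searched, and whether any motif bears on these levels was not tested. A match is a description of the letters and not a binding site.

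Per kilobase of exon the members differed widely in level, and GPNMB and TFE3 stood highest. Averaged over the 12 libraries, in CPM per kilobase of exon, GPNMB had 30.9, TFE3 13.6, FNIP1 7.98, MCOLN1 4.20, RRAGC 3.73, FLCN 3.43, FNIP2 1.63, MITF 1.55, RRAGD 0.694 and TFEB 0.543. CPM are counts scaled to a fixed library total with edgeR's TMM factors, and exon lengths are the union of GENCODE v29 exons. MCOLN1, RRAGC and FLCN had neighbouring levels, and FLCN lay above RRAGC at 1 kPa and below it at 8 and 30 kPa. FLCN had 4.23, 2.64 and 3.41 CPM per kilobase at 1, 8 and 30 kPa. In the same groups RRAGC had 3.83, 3.55 and 3.82 and MCOLN1 4.33, 3.98 and 4.29. RRAGD and TFEB rested on 40 to 98 and 40 to 88 counts per library, while GPNMB had 2522 to 4517. Counting error therefore weighs most on RRAGD and TFEB.

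**Figure D1:**
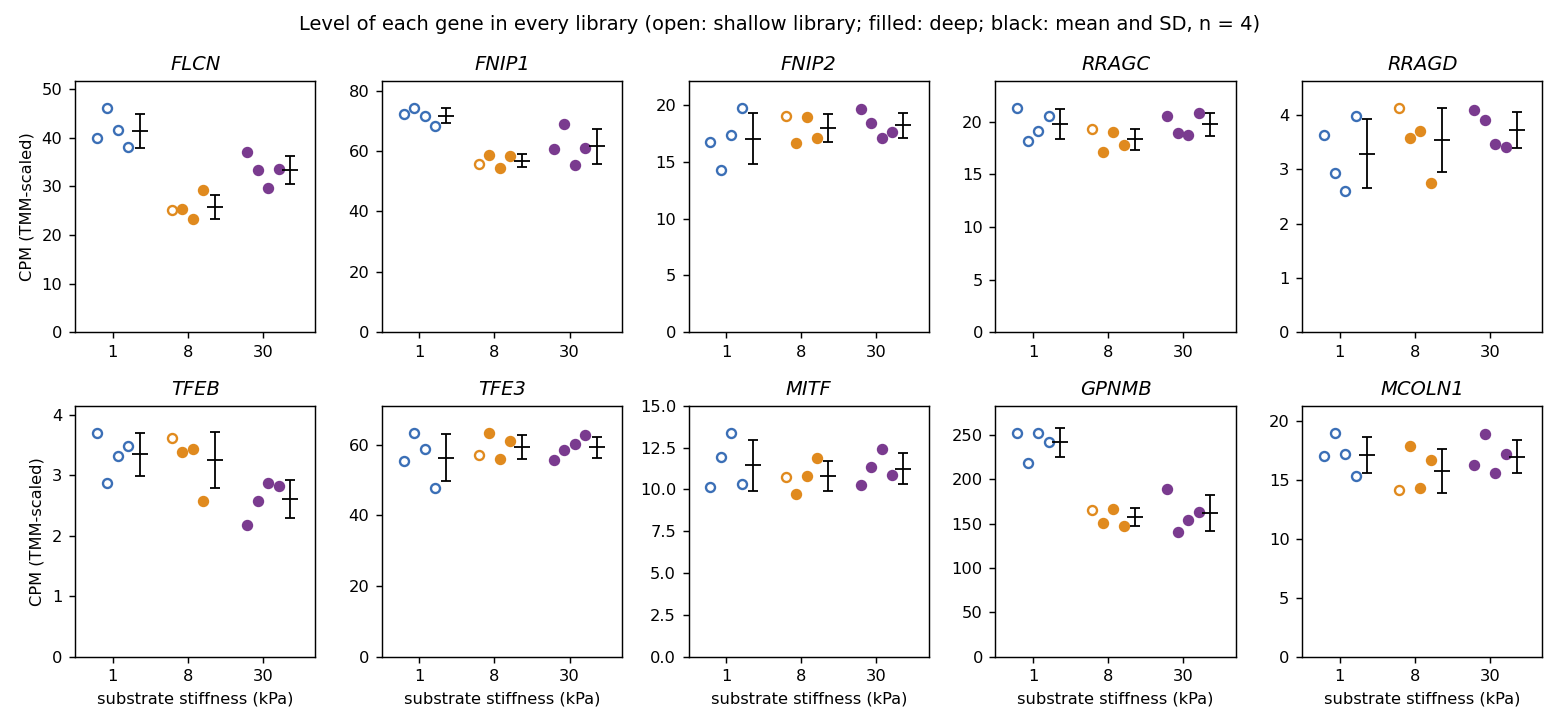
Level of the 10 genes in every library, in TMM-scaled CPM on linear axes that start at 0, by substrate stiffness in kPa. Each point is a library, open where its total is at most 15896607 counts and filled where it is at least 23896536, and black marks give the mean and SD (n = 4). FLCN, FNIP1 and GPNMB at 8 kPa lie below all 1 kPa libraries, and the other 7 genes overlap between 1 and 8 kPa.

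The comparison of 8 with 1 kPa asks how these transcripts differ between the middle and the softest surface. FLCN had 39.9, 46.2, 41.5 and 38.1 CPM in the 4 libraries at 1 kPa, 25.2, 25.3, 23.4 and 29.3 CPM at 8 kPa, and 37.0, 33.4, 29.8 and 33.5 CPM at 30 kPa. No library at 8 kPa reached the lowest at 1 kPa or the lowest at 30 kPa, and all libraries at 30 kPa lay below those at 1 kPa. FLCN thus stood at 25.8 ± 2.50 CPM at 8 kPa, against 41.4 ± 3.45 CPM at 1 kPa (SD, 4 libraries each), a log2 fold change of -0.68 (SE 0.0854). In the fit over all genes its adjusted p was 0.00521 by the quasi-likelihood test of edgeR, Benjamini-Hochberg adjusted, the 3rd smallest p of 17960 genes. That rank is close to how the list was picked and supports nothing by itself. These are bulk libraries, so fewer cells of a type and less RNA per cell cannot be told apart.

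FNIP1, the more abundant of folliculin's scaffold partners, was lower with it. It had 72.4, 74.3, 71.7 and 68.4 CPM at 1 kPa, 55.6, 58.8, 54.5 and 58.3 CPM at 8 kPa, and 60.7, 69.0, 55.3 and 61.1 CPM at 30 kPa. The 1 and 8 kPa libraries did not overlap, while 30 kPa replicate 2 reached the 1 kPa range. The log2 fold change at 8 against 1 kPa was -0.34 (SE 0.0622, edgeR adjusted p = 0.00867). FNIP2, which can take the place of FNIP1 in the complex, did not follow. It had 19.0, 16.7, 19.0 and 17.1 CPM at 8 kPa, against 16.8, 14.3, 17.4 and 19.8 CPM at 1 kPa, a log2 fold change of 0.07 with a 95% interval from -0.13 to 0.27. The interval of FNIP2 lies above that of FNIP1, from -0.47 to -0.20, and the difference between the genes was not tested.

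The make-up of the folliculin transcripts differed within libraries. The ratio of FNIP2 to FNIP1 per kilobase of exon was 0.25, 0.207, 0.255 and 0.215 at 8 kPa, against 0.169, 0.141, 0.177 and 0.211 at 1 kPa, and 1 kPa replicate 4 lay inside the 8 kPa range. At 30 kPa it averaged 0.217 ± 0.0183 (SD, n = 4). The ratio of FLCN to FNIP1 averaged 0.368 ± 0.028 at 8 kPa and 0.468 ± 0.0258 at 1 kPa, with 0.442 ± 0.0418 at 30 kPa (SD, 4 libraries each). FLCN was lower relative to FNIP1 in every library at 8 kPa (0.348 to 0.408) than in any at 1 kPa (0.447 to 0.504).

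**Figure D2:**
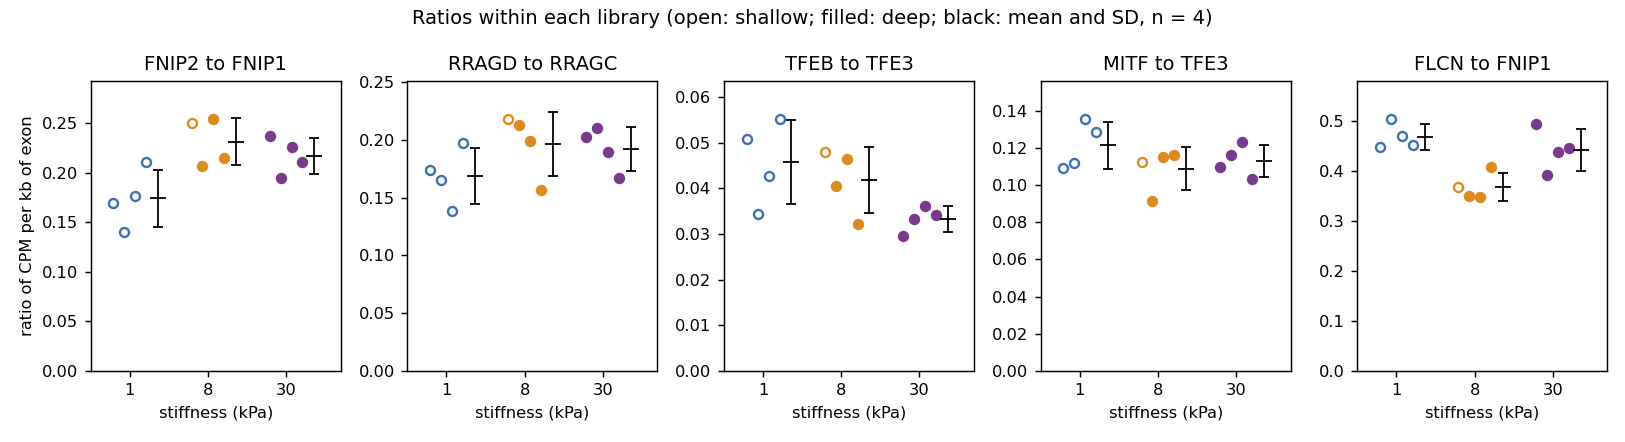
Ratios of CPM per kilobase of exon between gene pairs within each library, on linear axes from 0, by stiffness in kPa, with open points for shallow and filled points for deep libraries and black marks for the mean and SD (n = 4). The ratio of FLCN to FNIP1 is 0.348 to 0.408 at 8 kPa, below all 1 kPa libraries at 0.447 to 0.504, while RRAGD to RRAGC overlaps between all groups.

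The Rag GTPase transcripts, on whose products folliculin acts, did not pass the test. RRAGC had 19.3, 17.1, 19.0 and 17.8 CPM at 8 kPa, against 21.3, 18.2, 19.1 and 20.6 CPM at 1 kPa, and the groups overlapped (log2 fold change -0.11, 95% interval -0.27 to 0.04, edgeR adjusted p = 0.295). RRAGD, a known target of TFE factors, had 3.54 ± 0.583 CPM at 8 kPa, against 3.29 ± 0.633 CPM at 1 kPa (SD, 4 libraries each; log2 fold change 0.09, 95% interval -0.26 to 0.44). RRAGD took a small share of the pair, with a ratio to RRAGC per kilobase of 0.157 to 0.218 at 8 kPa and 0.139 to 0.197 at 1 kPa. The intervals leave room for modest changes, so absence of a call does not show that the levels were equal.

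The transcription factors of the family were led by TFE3 in every library. TFE3 made up 84.5% to 88.3% of the summed level of the 3 factors per kilobase, MITF 8.10% to 11.5% and TFEB 2.59% to 4.67%. TFE3 had 57.0, 63.3, 56.1 and 60.9 CPM at 8 kPa, against 55.3, 63.5, 58.8 and 47.8 CPM at 1 kPa, with a log2 fold change of 0.08 and a 95% interval from -0.09 to 0.24. MITF, the melanocyte lineage factor of the family, had 10.8 ± 0.869 CPM at 8 kPa, against 11.4 ± 1.53 CPM at 1 kPa (SD, 4 libraries each), and TFEB 3.25 ± 0.459 and 3.34 ± 0.352 CPM in the same groups. None of the 3 factors passed the test in any of the comparisons between stiffnesses (smallest edgeR adjusted p 0.209, for TFEB at 30 against 1 kPa; 3 factors, 3 comparisons). TFEB was at 2.17, 2.57, 2.87 and 2.82 CPM at 30 kPa, below all 4 libraries at 1 kPa (2.871 to 3.70 CPM). The gap was narrow, with 2.866 CPM as the highest value at 30 kPa. Its unadjusted edgeR p at 30 against 1 kPa was 0.0308, and 18.9% of tested genes had one under 0.05 there.

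GPNMB, the member with the highest level, was lower on both firmer surfaces. It had 252, 218, 252 and 242 CPM at 1 kPa, 165, 150, 166 and 147 CPM at 8 kPa, and 188, 141, 154 and 163 CPM at 30 kPa. All libraries at 8 and 30 kPa lay below all 4 at 1 kPa, and the 8 and 30 kPa libraries overlapped. The log2 fold change was -0.62 at 8 against 1 kPa (SE 0.0832, edgeR adjusted p = 0.00521), or 157 ± 10.2 against 241 ± 16.2 CPM (SD, 4 libraries each). FLCN and GPNMB were thus both lower at 8 than at 1 kPa, while MCOLN1 had 14.2, 17.9, 14.3 and 16.7 CPM at 8 kPa, against 17.0, 19.0, 17.2 and 15.3 CPM at 1 kPa, with overlap (log2 fold change -0.12, 95% interval -0.32 to 0.09).

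In all, 3 of the 10 members were called lower and 0 higher at 8 against 1 kPa, beside 13.8% of all tested genes called in either direction, 5.6% lower and 8.17% higher. The other 7 were not called, and 7 of the 10 fold changes were negative, with a median of -0.10 beside -0.01 over all tested genes. The same 3 members were those whose 8 and 1 kPa libraries did not overlap, which held for 16.8% of tested genes (7.36% lower, 9.41% higher). Library depth differed between these groups. The 1 kPa libraries and 8 kPa replicate 1 held 14317437 to 15896607 counts, and the other 7 libraries 23896536 to 27820973. In the shallow 8 kPa replicate 1, FLCN at 25.2, FNIP1 at 55.6 and GPNMB at 165 CPM lay below every 1 kPa library of like depth. Among the 5 shallow libraries alone, a comparison added after seeing the data, the log2 fold changes were -0.71, -0.35 and -0.53, with an edgeR adjusted p of 0.261 for each, where the 8 kPa level is 1 library assumed to vary like the 4 at 1 kPa. With depth class as a term the 3 fold changes were -0.72, -0.37 and -0.54 and the edgeR adjusted p 0.0649, 0.0834 and 0.0723. In that fit 0 of 17960 genes were called and 4299 had an unadjusted p under 0.05. Only the 8 kPa group held both depths, so its difference from 1 kPa in that fit again rests on 8 kPa replicate 1. The fit with the depth term and the fit of shallow libraries are therefore not separate checks. The calls of FLCN, FNIP1 and GPNMB held in each of 12 fits lacking a single library (highest adjusted p 0.0271, 0.0387 and 0.0271).

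**Figure D3:**
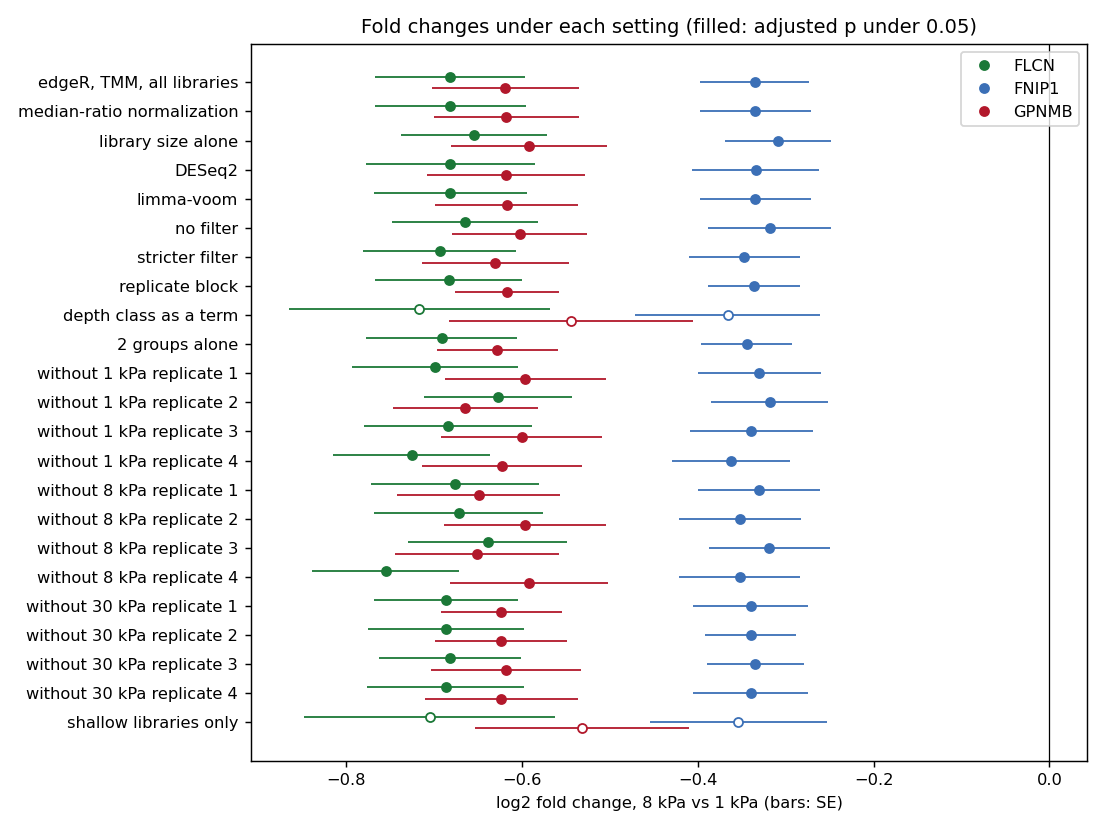
Log2 fold change at 8 against 1 kPa of FLCN, FNIP1 and GPNMB under each setting, with bars of 1 SE, filled where the adjusted p is under 0.05 over all tested genes. All values lie below 0, FLCN between -0.76 and -0.63, and the open points are the fits with depth class as a term and with shallow libraries only.

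The comparison of 30 with 8 kPa asks what differs between the stiffest and the middle surface. FLCN was the member with the most distant groups, at 33.4 ± 2.95 CPM at 30 kPa, against 25.8 ± 2.50 CPM at 8 kPa (SD, 4 libraries each), and its libraries did not overlap, which held for 11.3% of tested genes (4.79% higher, 6.5% lower). The gap was narrow, with nearest FLCN values of 29.3 CPM at 8 kPa and 29.8 CPM at 30 kPa. The log2 fold change of FLCN was 0.37 (SE 0.0843) and did not pass (edgeR adjusted p = 0.12). FLCN passed with DESeq2 (adjusted p = 0.0115), with no low-count filter (edgeR, 0.0131) and, in edgeR fits, without 1 kPa replicate 2 (0.0409) or 8 kPa replicate 4 (0.0197). GPNMB averaged 161 ± 20.2 CPM at 30 kPa, against 157 ± 10.2 CPM at 8 kPa, with a log2 fold change of 0.04 and a 95% interval from -0.14 to 0.22. The fold changes of FLCN and GPNMB at 30 against 8 kPa were not tested against each other. On the log2 scale FNIP1 differed by 0.11 (adjusted p = 0.342) and TFEB by -0.31 (adjusted p = 0.275, unadjusted p = 0.0481). EdgeR called 0 of the 10 members, beside 0% of 17960 tested genes, with 2 members and 3218 genes at an unadjusted p under 0.05. DESeq2 called 1 member and 430 genes, and limma-voom 0 and 0.

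The comparison of 30 with 1 kPa asks how the stiffest surface differs from the softest. GPNMB had a log2 fold change of -0.58 (SE 0.083, edgeR adjusted p = 0.00596), or 161 ± 20.2 CPM at 30 kPa, against 241 ± 16.2 CPM at 1 kPa (SD, 4 libraries each). Its call held in all 12 fits without 1 library (highest adjusted p 0.0303) and was lost with depth class as a term (-0.48, adjusted p = 0.444). On the log2 scale FLCN differed by -0.31 (SE 0.084, adjusted p = 0.0662) with no overlap between the groups, and FNIP1 by -0.22 (SE 0.0618, adjusted p = 0.0736) with overlap. FLCN passed with DESeq2 (0.0207), with no filter (0.0454), and without 1 kPa replicate 4 (0.0486) or 8 kPa replicate 4 (0.0373), and FNIP1 with DESeq2 (0.0324) and without 30 kPa replicate 2 (0.0352). In all 1 of 10 members was called, lower, beside 2.43% of tested genes called in either direction, 1.33% lower and 1.1% higher. The 30 and 1 kPa libraries of FLCN, TFEB and GPNMB did not overlap, all 3 lower at 30 kPa, which held for 11.4% of tested genes (6.06% lower, 5.33% higher). For TFEB the nearest values were 2.866 CPM at 30 kPa and 2.871 CPM at 1 kPa. All 1 kPa libraries were shallow and all 30 kPa libraries deep, so depth and stiffness cannot be told apart in this comparison. This comparison and that of 8 with 1 kPa share the 1 kPa libraries, so their fold changes for GPNMB are not independent.

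**Figure D4:**
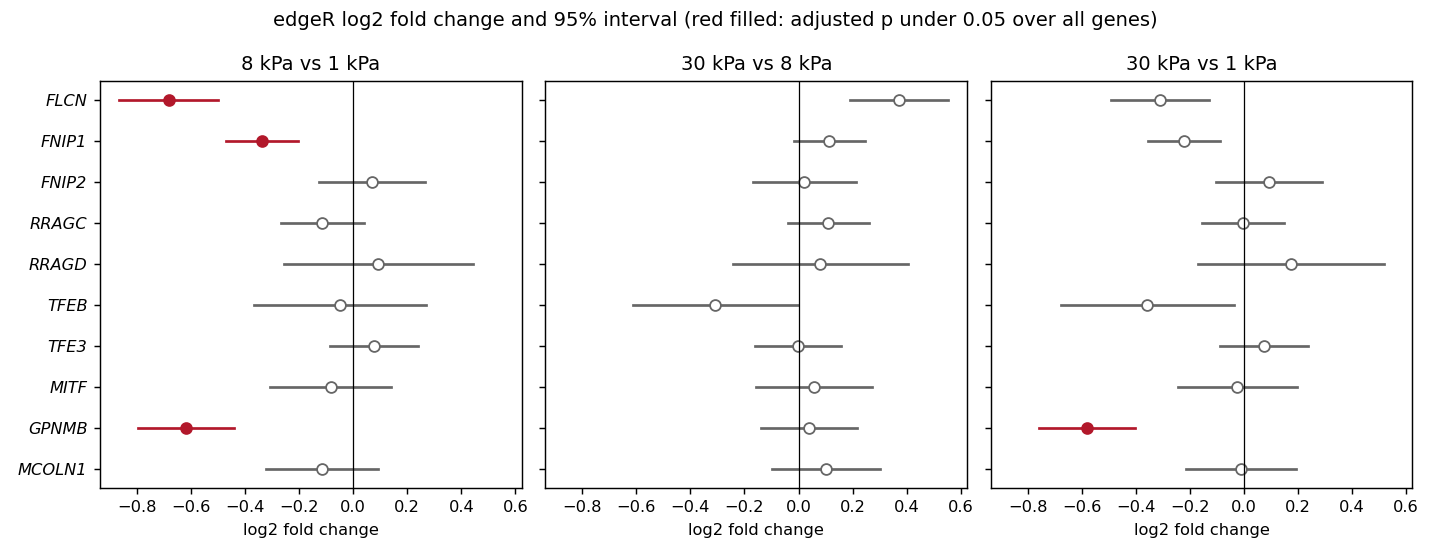
EdgeR log2 fold changes of the 10 genes with 95% intervals for 8 against 1 kPa, 30 against 8 kPa and 30 against 1 kPa, red and filled where the adjusted p over all tested genes is under 0.05. FLCN, FNIP1 and GPNMB are red at 8 against 1 kPa, 0 genes at 30 against 8 kPa, and GPNMB at 30 against 1 kPa.

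Genes around this pathway were followed in 9 lists of 191 tested genes without the members, of which 39 were called at 8 against 1 kPa, 20 higher and 19 lower (20.4%, beside 13.8% of all tested genes). Single libraries moved this count: it was 22 without replicate 1 or 3, 17 without replicate 2 and 68 without replicate 4 at 1 kPa, and 10 without replicate 1 and 7 without replicate 3 at 8 kPa. It was 17 in a fit of the 2 groups alone and 0 with depth class as a term or in shallow libraries alone, where each list below was also at 0. The same fits moved the count over all tested genes, 2472 in the joint fit. That count was 1575, 1096, 1414 and 3563 without replicate 1, 2, 3 or 4 at 1 kPa. Without replicate 1, 2, 3 or 4 at 8 kPa it was 771, 1804, 534 and 3465. The counts of each list in these fits stand beside those values. Among the 9 lists, that of lysosomal enzymes and membrane proteins had the most members lower. It covers a part of the CLEAR network of TFEB and TFE3 targets, and V-ATPase and autophagy genes were read as separate lists. Of the 33 lysosomal genes 11 were lower and 0 higher (33.3% called), beside 5.6% lower and 8.17% higher among all tested genes. Their median log2 fold change was -0.22, beside -0.01 over all genes. Of their 33 values 32 were negative, beside 52.4% of all genes. TPP1, a lysosomal peptidase, was at 105 ± 2.47 CPM at 8 kPa, against 134 ± 13.5 CPM at 1 kPa (SD, 4 libraries each; log2 fold change -0.36, edgeR adjusted p = 0.00962). CTSA, a protective carboxypeptidase, fell by 0.31 (adjusted p = 0.0156) and the glucuronidase GUSB by 0.22 (adjusted p = 0.0198), where pseudogene copies may share reads with GUSB. The CTSA call was lost without 8 kPa replicate 1 or 3, and that of GUSB also without 1 kPa replicate 2. The count of 11 became 1 without 8 kPa replicate 1 or replicate 3, 2 without 1 kPa replicate 2, 6 without 1 kPa replicate 1 or 3 and 23 without 1 kPa replicate 4. Without 8 kPa replicate 4, 1 gene of the list was also called higher. At least 31 of the 33 values were negative in each of these fits and in those with depth class as a term or shallow libraries alone, with medians from -0.30 to -0.13. The median was 0.11 at 30 against 8 kPa and -0.10 at 30 against 1 kPa, where 0 members were called.

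Of 17 genes of the V-ATPase, the proton pump that acidifies the lysosome, 2 rose, ATP6V1F by 0.33 (adjusted p = 0.017) and ATP6V0E2 by 0.30 (adjusted p = 0.0183), and 0 fell (edgeR, 11.8% called, median 0.04). Leaving out 8 kPa replicate 1 or 3 ended both calls. The counts were 3 higher and 2 lower without replicate 4 at 1 kPa, 2 higher and 1 lower without replicate 2 at 8 kPa, and 4 higher and 0 lower without replicate 4 at 8 kPa. Of 28 autophagy genes ATG14, a subunit of the lipid kinase that starts autophagosomes, fell by 0.28 (adjusted p = 0.0122) and the cargo receptor SQSTM1 by 0.27 (adjusted p = 0.0239), while WIPI2, which reads the lipid made by that kinase, rose by 0.22 (adjusted p = 0.0125). The share called was 10.7% and the median -0.02. The list had 3 higher and 2 lower without replicate 4 at 8 kPa and 0 higher and 1 lower without replicate 3 at 8 kPa. SQSTM1 had 570 ± 26.6 CPM at 8 kPa, against 686 ± 19.8 CPM at 1 kPa (SD, 4 libraries each). The call of SQSTM1 ended without 1 kPa replicate 3 or 8 kPa replicate 1 or 3 and that of WIPI2 without 8 kPa replicate 3, while ATG14 kept its call in all 12 fits.

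Of 26 genes of the Rag, Ragulator, GATOR and KICSTOR complexes, which carry the amino acid signal, 3 rose and 2 fell (19.2%, median 0.03). The counts were 1 higher and 0 lower without replicate 2 at 1 kPa or replicate 1 or 3 at 8 kPa, 1 and 1 without replicate 1 at 1 kPa, 3 and 0 without replicate 3 at 1 kPa or 2 at 8 kPa, and 4 and 4 without replicate 4 at 1 kPa. LAMTOR5, LAMTOR2 and SEH1L rose by 0.32, 0.31 and 0.19 (edgeR adjusted p = 0.0077, 0.0215 and 0.0232). The first 2 belong to Ragulator, the lysosomal anchor of the Rag GTPases, and LAMTOR5 alone of the 3 kept its call in all 12 fits, while those of LAMTOR2 and SEH1L ended without replicate 1 or 2 at 1 kPa or replicate 1 or 3 at 8 kPa. Of 22 genes of mTORC1, TSC and AMPK, 4 rose and 2 fell (27.3%, median 0.11). These became 2 higher and 0 lower without replicate 2 at 1 kPa or replicate 1 or 3 at 8 kPa, 2 and 1 without replicate 3 at 1 kPa or 2 at 8 kPa, 2 and 2 without replicate 1 at 1 kPa, and 6 and 3 without replicate 4 at 8 kPa. EIF4EBP1, the translation repressor that mTORC1 phosphorylates, rose to 25.1 ± 1.83 CPM at 8 kPa, against 15.0 ± 2.99 CPM at 1 kPa (SD, 4 libraries each; log2 fold change 0.74, adjusted p = 0.00628). RPS6, a ribosomal protein with many pseudogenes and so uncertain counts, rose by 0.42 (adjusted p = 0.0103), and TSC1, a brake on mTORC1, fell by 0.31 (adjusted p = 0.0199). Leaving out 1 kPa replicate 2 or 8 kPa replicate 1 or 3 ended the TSC1 call.

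Of 21 regulators of the TFE factors 7 rose and 0 fell (33.3%, median 0.10). PRKCB, a protein kinase C, rose by 1.03 (edgeR adjusted p = 0.0152), a difference already known from earlier results of these libraries. Leaving out 8 kPa replicate 3 ended the calls of PRKCB and STUB1. STUB1, a ubiquitin ligase, rose by 0.22 (adjusted p = 0.0161) and the kinase AKT1 by 0.27 (adjusted p = 0.0181), whose call ended without 8 kPa replicate 1 or 3. Leaving out 8 kPa replicate 3 brought the count to 0, 8 kPa replicate 1 to 2, 1 kPa replicate 1 or 3 to 3 and 1 kPa replicate 2 to 4. Of 18 folliculin partners and targets AHSA1, a co-chaperone of HSP90, alone was called, and rose by 0.32 (adjusted p = 0.00979; 5.56% called, median 0.10). In that list 4 genes were called without replicate 4 at 1 kPa and 3 with DESeq2. At 30 against 8 kPa 0 of the 191 genes passed edgeR's test (0%), with 53 at an unadjusted p under 0.05, 5 called by DESeq2, 5 with no filter and 0 by limma-voom. EdgeR called 16 without replicate 4 at 8 kPa, 2 without replicate 2 at 1 kPa and 1 without replicate 4 at 1 kPa. At 30 against 1 kPa 2 passed, both lower (1.05% beside 2.43% of all genes). The count there was 10 without replicate 4 at 1 kPa, 6 without replicate 4 at 8 kPa, 1 without replicate 1 or 3 at 1 kPa or replicate 2 or 3 at 30 kPa, 12 with DESeq2, 5 with no filter or a stricter one, 1 with library size alone and 0 with depth class as a term. PPP3CA, a catalytic subunit of calcineurin, which dephosphorylates TFEB, fell by 0.23 there (adjusted p = 0.0255), a call that ended without replicate 1 or 3 at 1 kPa or replicate 2, 3 or 4 at 30 kPa.

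Among 15 genes linked with GPNMB, all 15 fold changes were negative at 8 against 1 kPa, beside 52.4% of all genes, and ACP5 alone was called (6.67%, median -0.15). Negative values numbered 11 without replicate 2 at 1 kPa, 13 without replicate 1 at 8 kPa or with library size alone, and 14 without replicate 3 at 1 kPa, without replicate 2 at 8 kPa or with no filter. Calls numbered 5 without replicate 4 at 1 kPa, 2 without replicate 2 or 4 at 8 kPa or replicate 2 at 30 kPa, 0 without replicate 1 at 1 kPa or replicate 1 or 3 at 8 kPa, and 3 with DESeq2. ACP5, a lysosomal acid phosphatase, was at 7.86 ± 0.838 CPM at 1 kPa, 5.65 ± 0.411 CPM at 8 kPa, against 4.68 ± 0.627 CPM at 30 kPa (SD, 4 libraries each). The log2 fold change of ACP5 was -0.47 at 8 against 1 kPa (edgeR adjusted p = 0.0211) and -0.75 at 30 against 1 kPa (adjusted p = 0.00817). Leaving out 1 kPa replicate 1 or 8 kPa replicate 1 or 3 ended its call at 8 kPa, and its call at 30 kPa held in all 12 fits. PMEL, the closest relative of GPNMB, was low, with 1.31 to 2.86 CPM and at most 56 counts in a library. It differed by -0.46 on the log2 scale at 8 against 1 kPa (edgeR adjusted p = 0.114), and its adjusted p at 30 against 1 kPa was 0.771. The adhesion receptor CD44 differed by -0.38 at 8 against 1 kPa (adjusted p = 0.0705). Of 13 lysosomal channel genes and relatives of MCOLN1, the calmodulin genes CALM3 and CALM2 rose by 0.51 and 0.35 (adjusted p = 0.00552 and 0.0434) and PDCD6, a calcium sensor, fell by 0.41 (adjusted p = 0.0497; 23.1% called, median -0.13). CALM3 kept its call in all 12 fits, and CALM2 and PDCD6 each lost it in 10.

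**Figure D5:**
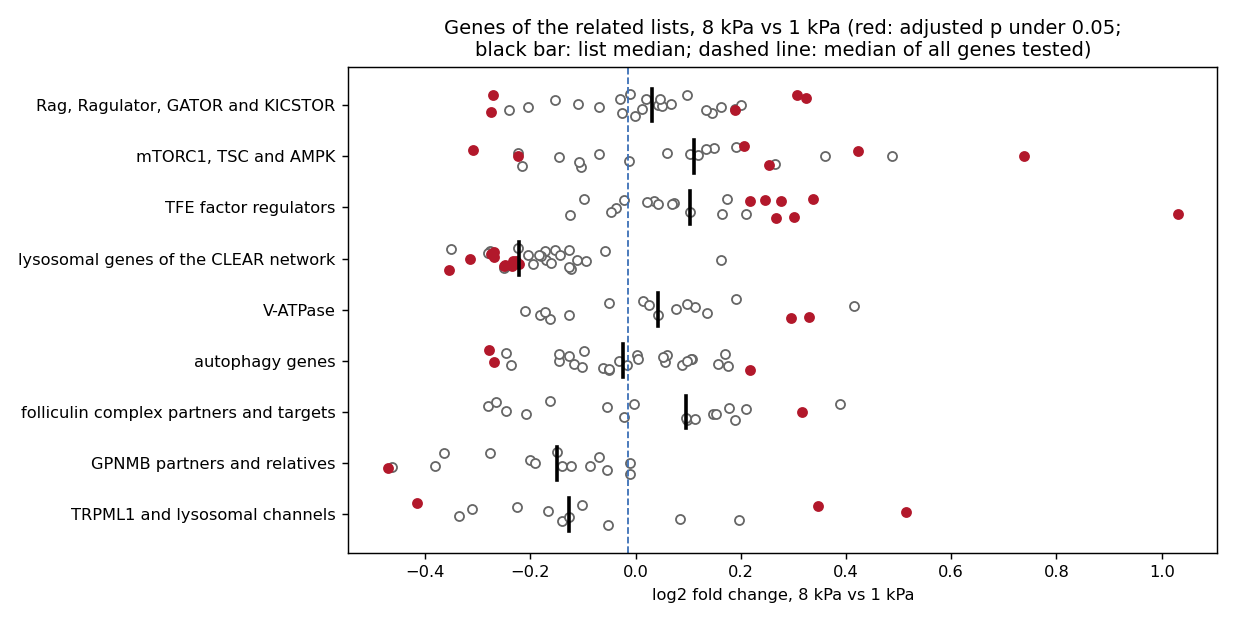
Log2 fold change at 8 against 1 kPa of each tested gene in 9 related lists, 1 point a gene with vertical scatter for legibility only, red where the adjusted p is under 0.05, with the list median as a black bar and the median of all tested genes dashed. Of 33 lysosomal genes of the CLEAR network 32 lie below 0, as do all 15 genes linked with GPNMB (11 without 1 kPa replicate 2).

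GPNMB is also known from macrophages, melanocytes and osteoclasts, and markers of these and of the line's own cell states were read in the same libraries. Of 10 macrophage and microglia markers 9 stayed under 1 CPM in all 12 libraries, TYROBP and CD163 at 0 counts, while CSF1R had 0.72 to 2.23 CPM. The summed level of the list was 1.71 to 2.82 CPM at 8 kPa and 2.28 to 2.73 CPM at 1 kPa. Of 7 melanocyte markers 5 stayed under 1 CPM in all 12 libraries, TYR at 0 counts and SOX10 at most 2 in a library. TYRP1 had 0.29 to 2.86 CPM and PMEL 1.31 to 2.86 CPM. The melanocyte list summed to 2.46 to 5.39 CPM at 8 kPa and 2.60 to 5.52 CPM at 1 kPa. The osteoclast list was at 39.3 to 56.2 CPM at 8 kPa and 53.7 to 74.4 CPM at 1 kPa. Over the 12 libraries CTSK had 21.3 to 41.3 CPM, TNFRSF11A 12.7 to 25.4 CPM and ACP5 4.08 to 8.67 CPM. The fusion genes DCSTAMP and OCSTAMP had at most 1 count in a library. Schwann and glial markers ranged from 4.87 to 6.23 CPM at 8 kPa and from 4.62 to 5.98 CPM at 1 kPa. The 7 fibroblast markers, each detected in every library, summed to 2245 to 2544 CPM at 1 kPa, 1965 to 2192 CPM at 8 kPa and 2053 to 2282 CPM at 30 kPa, so that the 8 kPa libraries lay below those at 1 kPa. The 8 mesenchymal neuroblastoma markers summed to 4854 to 5245 CPM at 1 kPa, 4374 to 5118 CPM at 8 kPa and 4105 to 4596 CPM at 30 kPa. The 10 adrenergic markers, which define the neuron-like state, summed to 590 to 877 CPM at 1 kPa, 737 to 1039 CPM at 8 kPa and 806 to 949 CPM at 30 kPa, and the tyrosine hydroxylase gene TH among them had at most 1 count. The fibroblast sums, GPNMB and FLCN were each lower at 8 than at 1 kPa. At 30 kPa the fibroblast sums overlapped those at 1 kPa, while GPNMB and FLCN did not. The mesenchymal sums at 30 kPa lay below all those at 1 kPa, as GPNMB and FLCN did, and overlapped them at 8 kPa. None of the 7 fibroblast markers was called at 8 against 1 kPa (smallest edgeR adjusted p 0.0685, for LUM). At 30 against 1 kPa COL3A1 alone among them was called (edgeR adjusted p = 0.0159). The part of the fibroblast and mesenchymal markers in these results was not tested.

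Likeness of pattern was measured as the Pearson r of log2 CPM with that of the member over the 12 libraries, among 11673 other genes with a symbol and at least 5 CPM. It is a description, since the libraries share the stiffness groups and depth classes, and says nothing of shared function. The 5 genes most like FLCN were GUSBP11 (r = 0.969), TUFMP1 (0.967), TNK2 (0.967), DNHD1 (0.964) and TTLL3 (0.964), of which TUFMP1 is a processed pseudogene and GUSBP11 a pseudogene-derived transcript with uncertain reads. TTLL3, a tubulin-modifying enzyme, stood at 59.4, 37.7 and 47.7 CPM at 1, 8 and 30 kPa, with 8 kPa lowest as for FLCN. The 5 genes most like GPNMB were PATJ (r = 0.955), TRIP11 (0.953), FRG1GP (0.949), HIVEP1 (0.920) and ZNF451 (0.919). HIVEP1, a zinc finger protein, averaged 48.3, 32.6 and 32.2 CPM at 1, 8 and 30 kPa.

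The members lie on different chromosomes or far apart. On GRCh38, FLCN (ENSG00000154803) spans 17212212 to 17237188 on chromosome 17, FNIP1 (ENSG00000217128) 131641714 to 131797063 on chromosome 5, and GPNMB (ENSG00000136235) 23235967 to 23275108 on chromosome 7. TFEB and RRAGD share chromosome 6 at 41683978 to 41736259 and 89364636 to 89412270. Shared exon bases could divert reads. A same-strand gene overlaps FLCN by 1161 exon bases and held 1 to 15 counts per library, beside 384 to 887 for FLCN. Genes overlapping 281 exon bases of FNIP1 and 1183 of RRAGC on the same strand had 0 counts in all libraries. So did a same-strand gene that shares 169 exon bases with MCOLN1, and PNPLA6 shares 6 with it. The counting tool is not given, so it cannot be told whether reads on shared bases were dropped. Low counts in the overlapping genes therefore do not show that the members lost none, which also limits their levels per kilobase. No antisense gene in GENCODE v29 shares exon bases with a member.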

How the data were processed

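RNA of 12 libraries of SK-N-SH cells, 4 each on 1, 8 and 30 kPa, was sequenced. Reads were aligned with HISAT2 to GRCh38, per the submitters' processing notes. The deposited values are raw counts per Ensembl gene. The counting tool, annotation release, strand setting and filters are not given in the sources used here, so antisense reads cannot be told apart. Symbols matched 42028 of 60664 identifiers. Positions and exon lengths came from GENCODE v29 (GRCh38).

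Counts were tested with edgeR 4.0.16 (R 4.3.3): filterByExpr, TMM scaling and quasi-likelihood F-tests with stiffness as the only term in 1 joint model of all libraries, adjusted by Benjamini-Hochberg over 17960 genes at 0.05. The SE is the fold change divided by the root of F, and 95% intervals use the t quantile of the fit. DESeq2 1.42.0 and limma-voom (limma 3.58.1) were alternatives, and the steps were tested on simulated data. Totals were 14317437 to 27820973 counts per library. Replicates of a group differed by more than sampling noise (chi-square per degree of freedom at least 2.52).

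The members and lists were chosen with earlier results of these data known. Named genes were all members and, per list and comparison, up to 3 called genes with the smallest p. PRKCB was already given in those earlier results. PMEL, CD44, TTLL3 and HIVEP1 are given values beyond that rule, chosen after their values were seen.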

Additional observations from a re-analysis of the deposited data

How the results depend on the processing

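At 8 against 1 kPa the count of 3 members stayed at 3 in all 12 fits without 1 library, and became 0 with depth class as a term and 0 in shallow libraries alone. Over all genes the count of 2472 ranged from 534 to 3563 without 1 library and was 1068 in the 2 groups alone, 0 with depth class as a term and 0 in shallow libraries alone. At 30 against 8 kPa members numbered 0 to 1 without 1 library, 1 with DESeq2 and 1 with no filter. All genes called there numbered 0 to 1026 without 1 library, 430 with DESeq2, 330 with no filter, 61 in the 2 groups alone and 2 in deep libraries alone. At 30 against 1 kPa members numbered 1 to 2 without 1 library, 3 with DESeq2, 2 with no filter and 0 with depth class as a term. All genes called there, 437 in the joint fit, numbered 50 to 676 without 1 library, 263 with library size alone, 1068 with DESeq2, 875 with no filter and 0 with depth class as a term. The cause of these shifts was not tested.

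With the replicate number as a block, 60 of the 191 list genes were called at 8 against 1 kPa, with 3 V-ATPase genes higher and 3 lower, 4 genes linked with GPNMB lower and 5 folliculin partners higher. The block gave 14 list genes at 30 against 1 kPa and 1 at 30 against 8 kPa. Over all genes, 40 were called at 30 against 8 kPa, and 974 genes and 3 members at 30 against 1 kPa, with FLCN (adjusted p = 0.0495) and FNIP1 (0.0319) added by edgeR. The labels do not say that the numbers pair libraries. Of 12 same-numbered pairs 7 had a correlation of deviations over 0.1 (range -0.177 to 0.467). In 7 of 12 cases a library was most like that of its own number, out of the 4 libraries of the other group. The TFE3 log2 fold change at 30 against 8 kPa was 0.00015 with the block.

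Fold changes near 0 changed sign, all without a call. TFE3 at 30 against 8 kPa (-0.00214) was 0.00134 with no filter, 0.0053 with the stricter filter and 0.00152 in the 2 groups alone, and -0.0271 to 0.0308 without 1 library. TFE3 was -0.00206 at 30 against 1 kPa with depth class as a term, and -0.000412 to 0.138 at 8 against 1 kPa without 1 library. RRAGC at 30 against 1 kPa was 0.0144 with library size alone, 0.0167 with no filter, 0.0966 with depth class as a term and -0.041 to 0.0335 without 1 library. MCOLN1 at 30 against 1 kPa was 0.00759 with library size alone, 0.00845 with no filter and -0.0683 to 0.0414 without 1 library. TFEB at 8 against 1 kPa was 0.109 with depth class as a term, 0.122 in shallow libraries alone and -0.113 to 0.046 without 1 library. Ranges without 1 library crossed 0 for FNIP2 (-0.00433 to 0.145) and RRAGD (-0.0109 to 0.197) at 8 against 1 kPa, for FNIP2 (-0.0151 to 0.0534), RRAGD (-0.0235 to 0.153) and GPNMB (-0.0418 to 0.102) at 30 against 8 kPa, and for MITF (-0.0779 to 0.0605) at 30 against 1 kPa. Low counts limit TFEB and RRAGD, whose SEs at 8 against 1 kPa were 0.148 and 0.163, beside 0.0854 for FLCN. The fits in shallow and in deep libraries alone were chosen after seeing the data.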
